A study of Mus musculus with 2 samples.

Results

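Macrophages that carry Ccr2 and high levels of MHC class II genes were described in injured mouse tendon of TrkA F592A and TrkA WT mice. CCR2 is the chemokine receptor through which monocytes leave the bone marrow and enter injured tissue. There they can mature into macrophages that load peptides onto MHC class II molecules with the help of the invariant chain Cd74 and present them to CD4+ T cells. Macrophages of this kind are known as sources of interleukin 1 beta and of chemokines, and some carry Retnla, a secreted protein that interleukin 4 and interleukin 13 induce.

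The cells came from the dissected injury site at day 14 after tendon surgery in 12-week-old mice, and their transcripts were counted by droplet single-cell RNA sequencing. There was 1 library for TrkA F592A and 1 for TrkA WT, each from 3 pooled mice. The F592A change is known to make the TrkA kinase, which sensory neurons carry, open to block by bulky inhibitors. The F592A library is titled INMPP1 and the WT library Control. The sources used here do not state whether WT mice received a compound, nor the strain and sex of the mice. With 1 library per genotype, no difference was tested, genotype and library cannot be told apart, and every interval is a 95% interval for counting error only.

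The cells were chosen by their own transcripts. A barcode was kept with at least 1000 UMIs (counted transcript molecules), at least 500 genes and at most 15% mitochondrial UMIs, and if the other library did not hold the same barcode. Of these cells, the macrophages had Col1a1, Col1a2 and Col3a1 together under 1% of UMIs and H2-Aa, H2-Ab1 and H2-Eb1 together at 100 or more UMIs per 10000. They also had at least 1 UMI each of Ccr2 and Csf1r, the receptor for the macrophage growth factor CSF1, and none of Ccr7 or Flt3, which mark dendritic cells. This gave 306 F592A cells of 8551 and 334 WT cells of 11485, or 640 of 20036 in all. Levels of these 10 genes describe the choice and are no result.

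Most of these macrophages lay well inside the MHC class II limit. The sum of the 3 MHC class II genes had a median of 226.6 UMIs per 10000 in F592A cells, with a range from 100.7 to 533.7, and a median of 250.4 in WT cells, with a range from 100.3 to 600.3. Between 100 and 110 UMIs per 10000 lay 7 F592A and 10 WT cells. Between 90 and 100 lay 10 F592A and 7 WT cells that met the collagen, Ccr2 and Csf1r conditions, counted without regard to Ccr7 and Flt3. A single Ccr2 UMI admitted 46 F592A cells and 59 WT cells. Of stromal cells, which should lack Ccr2, 1.07% in F592A and 0.844% in WT held a Ccr2 UMI, at median depths of 23838 and 21615 UMIs.

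The F592A library held 10677 barcodes and 181472230 UMIs, and the WT library 14868 barcodes and 222874195 UMIs. They shared 764 barcodes, of which 113 in F592A and 114 in WT passed the other filters and were left out. The F592A macrophages were deeper, with a median of 12990 UMIs and 2730 genes per cell, against 9655 UMIs and 2428 genes in WT. Their mitochondrial share had a median of 2.79% in F592A and 3.69% in WT. The doublet caller Scrublet marked 3 F592A and 2 WT macrophages, which were kept in the main values.

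Markers went with the macrophage label, apart from Csf1r, which is among them and which every cell had to hold. All 10 macrophage markers, among them Adgre1, Cd68, C1qa and Mrc1, were detected in both libraries and summed to 8487 CPM (UMIs of a gene scaled to 1000000 UMIs of the set) in F592A and 9896 CPM in WT. The sum was higher in macrophages with MHC class II below the limit, at 11033 CPM in F592A and 12791 CPM in WT. It was higher too in MHC class II macrophages without a Ccr2 UMI, at 12777 CPM in F592A and 13080 CPM in WT. All 10 were also detected in stromal cells, where they summed to 288.8 CPM in F592A and 339.7 CPM in WT. In MHC class II cells with Flt3 or Ccr7, the same 10 summed to 1835 CPM in F592A and 2375 CPM in WT. The monocyte markers summed to 242.2 CPM in F592A and 353.1 CPM in WT. That was near the 285.3 CPM in F592A and 329.5 CPM in WT of those Flt3 or Ccr7 cells. Stromal cells held more, at 525.6 CPM in F592A and 660.9 CPM in WT, so this sum alone cannot tell monocytes apart. Markers of type 1 dendritic cells summed to 65.96 CPM in F592A and 61.3 CPM in WT. Those of type 2 dendritic cells summed to 458.2 CPM in F592A and 369.2 CPM in WT, against 669.6 and 763.0 CPM in the Flt3 or Ccr7 cells. Zbtb46, a factor that defines dendritic cells, was at 2.35 CPM in F592A and 3.47 CPM in WT macrophages. T and NK cell markers were nearly absent, with 7 of 8 at 0 UMIs in F592A and 4 of 8 in WT. Retnla, given as a marker of these cells, was found in a minority of them in both libraries.

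MHC class II genes have well-known control elements just upstream of their starts. The 150 bases before the RefSeq start of H2-Aa and H2-Eb1, chains of the 2 classical mouse MHC class II molecules, are shown because both genes chose the cells and had near-equal levels in both libraries. Capitals mark AGCAAC, part of the X box that the RFX complex binds, and CCAAT or its reverse ATTGG, the core of the Y box that NF-Y binds. Sequences are from RefSeq on build GRCm38.p6, written 5′ to 3′ on the strand of the gene. H2-Aa lies at chr17:34287824-34287973 on the minus strand and H2-Eb1 at chr17:34305717-34305866 on the plus strand.
H2-Aa: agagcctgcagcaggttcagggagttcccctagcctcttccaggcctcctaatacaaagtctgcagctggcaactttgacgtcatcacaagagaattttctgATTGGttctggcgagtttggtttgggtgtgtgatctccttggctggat
H2-Eb1: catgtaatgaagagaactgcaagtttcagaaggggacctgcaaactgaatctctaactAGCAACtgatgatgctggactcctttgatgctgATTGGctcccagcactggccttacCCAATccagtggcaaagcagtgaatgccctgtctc

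Of 10 MHC class II presentation genes with a promoter in the RefSeq table, 8 held CCAAT in either direction within 250 bases before to 50 bases after the start, as did 37.4% of all 32851 promoters. AGCAAC stood in 3 of the 10 and in 14.8% of all promoters. A match is a run of letters and was not tested as a binding site.

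These macrophages took a larger share of the F592A library. Their share was 3.58% in F592A, with limits of 3.19 and 3.99, and 2.91% in WT, with limits of 2.61 and 3.23. The ratio of these shares was 1.23, between 1.06 and 1.43. Among cells with a Csf1r UMI and little collagen, they were 17.1% in F592A and 12.8% in WT, a ratio of 1.34 (interval 1.16 to 1.54). With each cell thinned to 5000 UMIs before the choice, so that depth was equal, the ratio was 1.29 (interval 1.08 to 1.54). With a limit of 200 UMIs per 10000 for MHC class II it was 1.11, and its interval from 0.916 to 1.35 included 1.

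Neighbouring sets were made by turning round a condition of the choice, in part with other conditions dropped. The low MHC class II set was chosen without regard to Ccr2, and the Flt3 or Ccr7 set without regard to Ccr2 and Csf1r. Comparisons with these sets thus differ in more than 1 condition. Whether the ratios of these sets differed from that of the Ccr2 and MHC class II macrophages was not tested. Macrophages with MHC class II below the limit, the bulk of the Csf1r cells, were 15.5% of F592A cells and 18.0% of WT cells, a ratio of 0.857 (interval 0.805 to 0.913). MHC class II macrophages without a Ccr2 UMI were 1.06% of F592A and 0.966% of WT cells, a ratio of 1.10 (interval 0.836 to 1.45). MHC class II cells with Flt3 or Ccr7, the dendritic side, were 1.37% of F592A and 1.26% of WT cells, a ratio of 1.08 (interval 0.851 to 1.38). Dissection, digestion and genotype cannot be told apart in these shares.

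**Figure D1:**
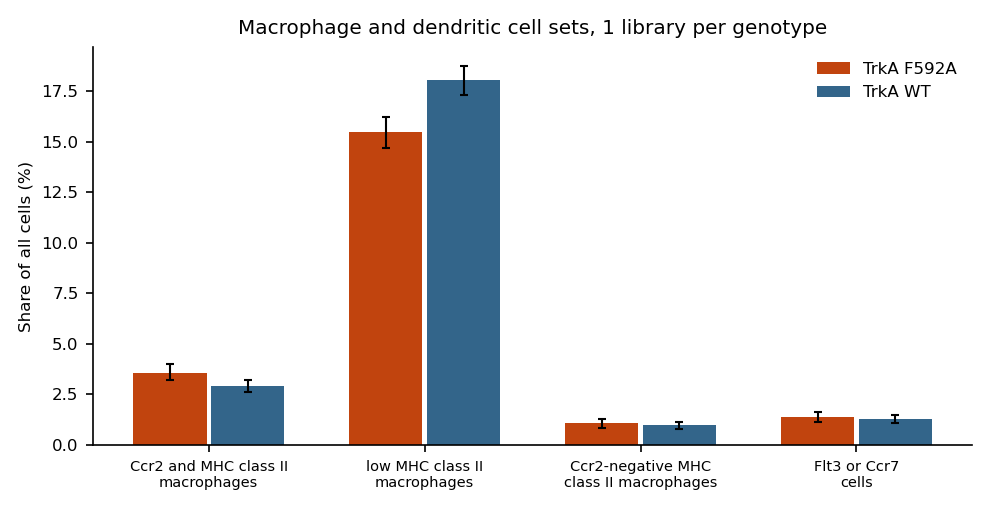
Share of all cells (%) in 4 sets of macrophages and dendritic cells, TrkA F592A in red and TrkA WT in blue, with exact binomial 95% intervals for counting error. The Ccr2 and MHC class II macrophages stand at 3.58% in F592A and 2.91% in WT, while the low MHC class II macrophages stand at 15.5% in F592A and 18.0% in WT.

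UMIs were summed over the macrophages of each library and compared as the log2 ratio of CPM, F592A over WT. Genes with 100 or more UMIs in both libraries together count as measured. There were 5751, with a median log2 ratio of -0.10. Of these, 2.68% were higher in F592A by 1.5-fold or more and 5.41% were lower by as much. Those shares are the measure for the 1.5-fold counts of F592A over WT in the gene lists below. A level of 20 CPM in either library was reached by 4877 of the measured genes. Among these, 23 (0.472%) were higher in F592A by 2-fold or more and 37 (0.759%) were lower by that much. After TMM scaling, which moves the median of all genes to about 0, the counts were 34 higher and 31 lower, so the split between the directions rests on the scaling. The 10 highest and 10 lowest of the genes kept for naming are shown. Retnla and Ear2 are on the alternative activation list, Folr2 on the tissue-resident, Lpl on the lipid-associated and Ccl8 on the chemokine list. Among the lowest, Gbp2, Irf7 and Zbp1 are on the interferon-response list, Ms4a4c on the monocyte list and Cxcl9 on the chemokine list. The other 10 are on none of the gene lists.

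**Figure D2:**
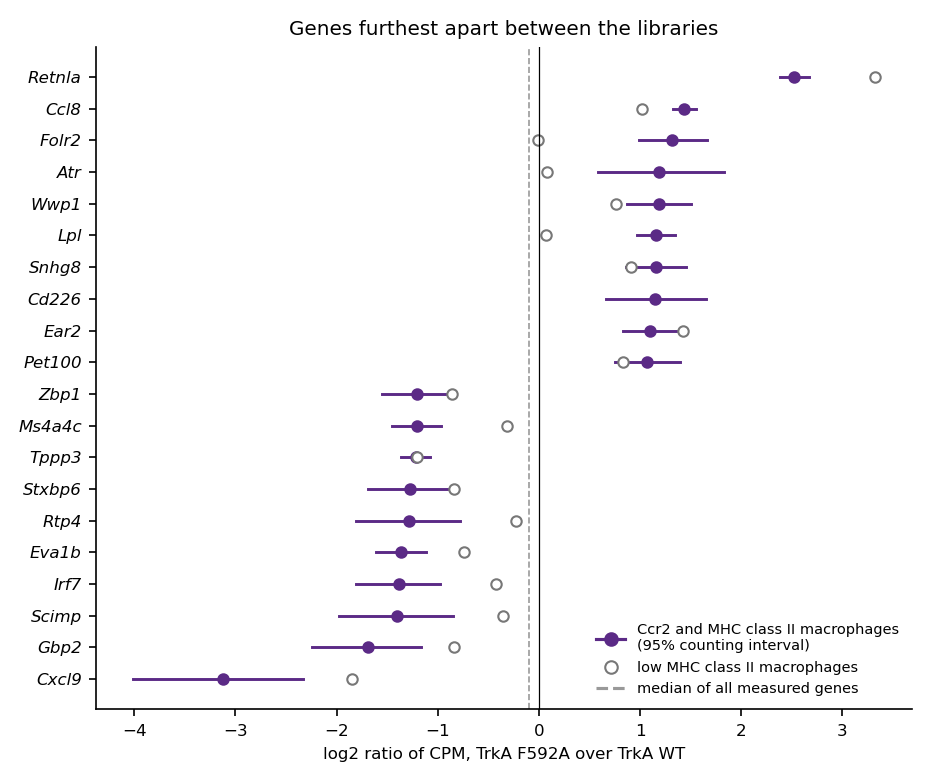
The 10 highest and 10 lowest log2 ratios of CPM, TrkA F592A over TrkA WT, in Ccr2 and MHC class II macrophages, with 95% counting intervals. Open circles give low MHC class II macrophages where both libraries together held at least 20 UMIs. Retnla stands at 2.53 and Cxcl9 at -3.12, and Folr2 and Lpl lie at 1.32 and 1.16 against about 0 in low MHC class II macrophages.

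MHC class II genes themselves were near level. Cd74, which the choice of cells did not use, was at 17849 CPM in F592A and 18002 CPM in WT (log2 ratio -0.01, and 0.09 after TMM scaling). H2-Ab1, which it did use, was at 7456 CPM in F592A and 8540 CPM in WT (log2 ratio -0.20). Of 11 measured MHC class II presentation genes, 0 passed 1.5-fold in either direction, and the list had a median log2 ratio of -0.22. Of all measured genes, 2.68% were that much higher and 5.41% that much lower. H2-Aa, H2-Ab1 and H2-Eb1 are among the 11, and the choice of cells held their summed level high in both libraries. Without them the list median was -0.26. The lowest were the peptide editors H2-DMa (504.2 CPM in F592A and 680.7 CPM in WT, -0.43) and H2-DMb1 (-0.36), and the highest were Cd74 and H2-Aa (-0.07). Ciita, the master activator of the class II genes, was at 43.9 CPM in F592A and 51.2 CPM in WT (-0.22). Ccr2 was at 545.0 CPM in F592A and 525.4 CPM in WT (0.05).

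MHC class I and co-stimulation genes moved little as lists, with medians of -0.23 and -0.13. Tap1, a peptide transporter induced by interferons, was at 22.1 CPM in F592A and 46.3 CPM in WT (-1.07), and H2-T23, a non-classical class I chain, was at 133.1 CPM in F592A and 216.6 CPM in WT (-0.70). Erap1, which trims peptides, was the class I gene at least 1.5-fold higher in F592A, at 21.8 CPM against 13.9 CPM in WT (0.65). Tnfsf9, the ligand of 4-1BB, was at 547.6 CPM in F592A and 940.02 CPM in WT (-0.78), and Cd86 was at 292.9 CPM in F592A and 264.9 CPM in WT (0.15).

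Retnla (ENSMUSG00000061100, chr16:48842551-48844461, GRCm38) had the largest positive ratio. It was at 719.0 CPM in F592A macrophages (3063 UMIs) and 124.9 CPM in WT macrophages (432 UMIs), a log2 ratio of 2.53 (interval 2.38 to 2.67). The UMIs sat in few cells. Retnla was seen in 47 F592A cells (15.4%) and 8 WT cells (2.40%), and the 10 richest cells held 71.4% of its UMIs in F592A and 100% in WT. The 3 richest cells held 376, 356 and 270 UMIs in F592A, against 137, 136 and 116 UMIs in WT. Most macrophages of both libraries thus had no Retnla UMI, and F592A had more cells with one.

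With every macrophage thinned to 5000 UMIs, 32 of 293 F592A cells (10.9%, interval 7.59 to 15.1) and 6 of 305 WT cells (1.97%) had a Retnla UMI. Stromal cells at the same depth, which gauge free RNA, had one in 0.343% in F592A and 0% in WT. The level moved with the class II limit. Of the cells at or above 200 MHC class II UMIs per 10000, 30 F592A and 4 WT cells held Retnla, with 1939 and 14 UMIs, and the log2 ratio was 6.91. Leaving out macrophages with at least 2 UMIs of 6 mitotic genes gave 2.13. Of all Retnla UMIs in the F592A library, 78.1% lay in these macrophages, and 94.3% of those in WT. Low MHC class II macrophages had 5.06 CPM in F592A and 0.506 CPM in WT.

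The stretch upstream of Retnla is shown because STAT6 and C/EBP factors are known to act on this promoter in alternatively activated macrophages. It lies at chr16:48842459-48842608 on the plus strand, from RefSeq on GRCm38.p6. Capitals mark a match to TTCNNNNGAA, the spaced palindrome that STAT6 favours, and a match to TTGCNNAA, a C/EBP-type motif.
Retnla: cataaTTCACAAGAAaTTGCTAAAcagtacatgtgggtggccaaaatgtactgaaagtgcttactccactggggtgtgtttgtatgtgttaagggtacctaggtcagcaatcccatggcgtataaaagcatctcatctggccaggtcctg

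The matches begin 145 and 134 bases before the RefSeq start and do not overlap. The gene coordinates given above are of GENCODE, whose outermost Retnla start lies 58 bases upstream of the RefSeq one, so the end of the stretch falls within the GENCODE gene. TTCNNNNGAA, its own reverse complement, stood in 6.95% of all promoters of the table and TTGCNNAA on either strand in 10.8%. Of the 20 genes furthest apart, 13 had a promoter in the table, of which Retnla held the first motif and Atr, Ear2 and Retnla the second. Of 10 alternative activation genes with a promoter, Ccl17 and Retnla held the first motif.

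Other genes of alternative activation went both ways. Of 14 measured, 5 were higher in F592A by 1.5-fold or more and 2 were lower by as much, and the list median was 0.06. Ear2, an eosinophil-type ribonuclease that some mouse macrophages make, was at 104.9 CPM in F592A and 49.2 CPM in WT (log2 ratio 1.09, interval 0.84 to 1.36), and its ratio was 0.48 without mitotic cells. Clec10a, a galactose-binding lectin, was at 112.2 CPM in F592A and 62.7 CPM in WT (0.84). Irf4, a factor needed for part of the interleukin 4 response, was at 83.8 CPM in F592A and 53.2 CPM in WT (0.66). The lectin Mgl2 was at 235.4 CPM in F592A and 219.8 CPM in WT (0.10), and Arg1 had 1.17 CPM in F592A and 1.45 CPM in WT. The chemokine Ccl17 was at 14.3 CPM in F592A and 57.3 CPM in WT (-2.00), but it sat in 4 F592A and 9 WT cells and its pooled level was below 1/4 of that in Flt3 or Ccr7 cells. Ccl24, an eosinophil attractant, was at 38.0 CPM in F592A and 58.4 CPM in WT (-0.62).

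Several genes went with Retnla in both libraries, and those named here were picked for doing so. Cells with and without a thinned Retnla UMI were compared inside each library, 32 against 261 in F592A and 6 against 299 in WT. Cd226, an adhesion receptor, was at 145.1 CPM in Retnla-positive and 12.4 CPM in Retnla-negative F592A cells, and at 162.1 and 8.59 CPM in WT cells. Ear2 was at 433.6 and 48.3 CPM in F592A and at 534.1 and 30.4 CPM in WT. Lyz1, Fcrls, Ptgir, Ifitm6, Dcstamp, Ccl6 and Oasl1 were also higher in the positive cells of both libraries, and Plac8, Cd72, Dusp2, Gpr183 and Ms4a6b were lower. Plac8, a monocyte gene, was at 3.37 CPM in positive and 102.4 CPM in negative F592A cells and at 9.54 and 111.4 CPM in WT cells. The positive cells held 2 Plac8 UMIs in F592A and 1 in WT. After thinning, 9.90% of all F592A and 12.8% of all WT macrophages held Plac8, as did 8.98% and 9.95% of stromal cells. All WT values of positive cells rest on 6 cells.

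Positive cells were deeper than negative ones, with medians of 19856 and 12842 UMIs in F592A and 18496 and 9907 UMIs in WT. Mitotic genes marked 21.9% of positive and 16.1% of negative F592A cells, and 16.7% of positive and 20.7% of negative WT cells. Scrublet called 0 of the positive cells in either library. Mgl2 was seen in 65.6% of positive and 27.2% of negative F592A cells and in 66.7% and 29.1% of WT cells, after thinning. Il1b was seen in 84.4% of positive and 82.0% of negative F592A cells, and in 83.3% and 87.3% of WT cells. Without the Retnla-positive cells the F592A over WT log2 ratio was 0.53 for Cd226 and 0.63 for Lpl, against 1.15 and 1.16 in all macrophages. Lpl was at 636.1 CPM in positive and 140.3 CPM in negative F592A cells, and at 124.0 CPM (13 UMIs) and 90.5 CPM in WT cells.

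**Figure D3:**
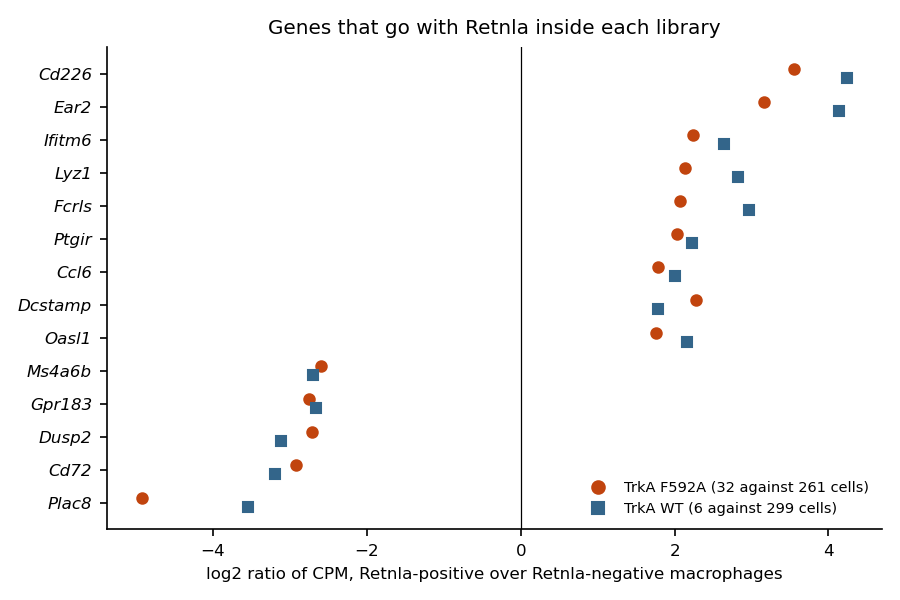
log2 ratio of CPM, Retnla-positive over Retnla-negative macrophages, inside TrkA F592A (circles) and inside TrkA WT (squares), for genes on the same side of 0 in both libraries. Cd226 and Ear2 are the highest in both and Plac8 is the lowest in both.

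Genes of tissue-resident macrophages were higher in F592A. All 12 measured members of the list lay above the median of all genes, 5 were higher by 1.5-fold or more, 0 were lower by as much, and the list median was 0.49. Folr2, a folate receptor of resident macrophages, was at 71.4 CPM in F592A (304 UMIs in 69 cells) and 28.6 CPM in WT (99 UMIs in 46 cells), a log2 ratio of 1.32 (interval 0.99 to 1.66), and 0.90 with the class II limit at 200. Gas6, a bridge between dying cells and phagocytes whose pooled level here was below 1/4 of that in stromal cells, was at 75.3 CPM in F592A and 42.5 CPM in WT (0.83). The scavenger receptor Stab1 (0.72), F13a1 (0.70) and Cx3cr1 (0.61) followed, and Pf4 (0.30) and the mannose receptor Mrc1 (0.20) were the least apart. Lyve1, a marker of vessel-side macrophages, had 1.41 CPM in F592A and 0.867 CPM in WT, and Timd4 and Vsig4 had 0 UMIs in both.

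The resident genes sat in a part of the cells. The summed list had a median of 17.5 UMIs per 10000 in F592A and 15.8 in WT, but the upper quartile was at 51.1 in F592A and 37.1 in WT. The 10% of cells with the most lay above 106.6 in F592A and above 70.7 in WT. In low MHC class II macrophages the list median was 0.24, and there Folr2 was at 148.4 CPM in F592A and 148.8 CPM in WT (-0.00). In MHC class II macrophages without Ccr2 the list median was 0.45.

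Ccl8, a monocyte and eosinophil attractant that resident-type macrophages make, was at 622.5 CPM in F592A (2652 UMIs in 78 cells) and 229.9 CPM in WT (795 UMIs in 54 cells), a log2 ratio of 1.44 (interval 1.32 to 1.55), and 2.15 without mitotic cells. It was higher in F592A in every neighbouring set too, at 1.02 in low MHC class II macrophages, 1.57 in those without Ccr2 and 3.29 in Flt3 or Ccr7 cells, where WT held 9 UMIs. Stromal cells showed 0.38. Lpl, the lipase that frees fatty acids from lipoproteins, was at 208.7 CPM in F592A and 93.4 CPM in WT (1.16), against 0.07 in low MHC class II macrophages, 0.96 in stromal cells and -1.41 in Flt3 or Ccr7 cells.

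The remaining genes of the 10 highest were Wwp1, Snhg8, Pet100 and Atr. Wwp1, a ubiquitin ligase, was at 74.2 CPM in F592A and 32.7 CPM in WT (1.18), with 0.76 in low MHC class II macrophages. Snhg8, a host gene of small nucleolar RNA, was at 85.7 CPM in F592A and 38.5 CPM in WT (1.16), and Pet100, needed for cytochrome oxidase assembly, was at 68.1 CPM in F592A and 32.4 CPM in WT (1.07). Snhg8 and Pet100 were also higher in F592A stromal cells, at 0.89 and 0.86. Atr, a DNA damage kinase, was at 20.4 CPM in F592A and 8.96 CPM in WT (1.19), but 10 cells held 74.7% of its F592A UMIs and its ratio was -0.39 after thinning.

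Interferon-response genes were lower in F592A. Of 15 measured, 9 were lower by 1.5-fold or more, 0 were higher by as much, and the list median was -0.77. Irf7, which amplifies the type I interferon response, was at 17.4 CPM in F592A (74 UMIs in 38 cells) and 45.4 CPM in WT (157 UMIs in 64 cells), a log2 ratio of -1.39 (interval -1.80 to -0.98). Gbp2, a guanylate-binding protein that attacks intracellular pathogens, was at 9.86 CPM in F592A and 31.8 CPM in WT (-1.69). Zbp1, a sensor of nucleic acids, was at 25.8 CPM in F592A and 59.6 CPM in WT (-1.21), and Rtp4, outside the list but also induced by interferon, was at 11.5 CPM in F592A and 28.0 CPM in WT (-1.29). Isg15 was at 200.9 CPM in F592A and 201.8 CPM in WT (-0.01), and Ifi27l2a at 380.7 CPM in F592A and 407.7 CPM in WT (-0.10).

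Summed over the list, the typical macrophage differed little. The list summed to 1045 CPM in F592A and 1463 CPM in WT, and the near-level Isg15 and Ifi27l2a were a large part of it. The sum therefore cannot show whether the lower genes differed in the typical cell. This sum had a median of 6.98 UMIs per 10000 in F592A and 7.38 in WT. The upper quartile was at 13.5 in F592A and 18.5 in WT, and the highest cell had 126.5 in F592A and 235.6 in WT. The 10 richest cells held 16.2% of the list's UMIs in F592A and 23.9% in WT. The list median was -0.42 in low MHC class II macrophages and -0.62 in Flt3 or Ccr7 cells, and -0.01 over 4 measured genes in MHC class II macrophages without Ccr2. Cxcl9, the lowest of the genes kept for naming, which leave out haemoglobin, at 3.52 CPM in F592A and 30.6 CPM in WT (-3.12), rested on 4 F592A and 5 WT cells. Its ratio was -1.46 when Flt3 and Ccr7 were not used in the choice, and Flt3 or Ccr7 cells held 33 UMIs in F592A and 0 in WT.

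The stretch upstream of Gbp2 is shown as an example of the element these genes are known for. It lies at chr3:142620513-142620662 on the plus strand, from RefSeq on GRCm38.p6. Capitals mark TTTCACTTTC, the reverse of the interferon-stimulated response element core GAAANNGAAA, which begins 59 bases before the RefSeq start. The outermost GENCODE start of Gbp2 lies 61 bases upstream of the RefSeq one, so by GENCODE the match falls within the gene.
Gbp2: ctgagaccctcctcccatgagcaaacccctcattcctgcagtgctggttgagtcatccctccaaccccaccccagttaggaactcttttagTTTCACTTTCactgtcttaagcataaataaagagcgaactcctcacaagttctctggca

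On either strand, the core GAAANNGAAA stood in 13 of the 21 interferon-response genes that had a promoter in the table, and in 3.44% of all promoters. Isg15 and Ifit1, whose ratios were near 0 (-0.01 and -0.19), held it, as did Gbp2 and Rsad2 (-1.29). The pooled Rsad2 level in these macrophages was below 1/4 of that in neutrophils.

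**Figure D4:**
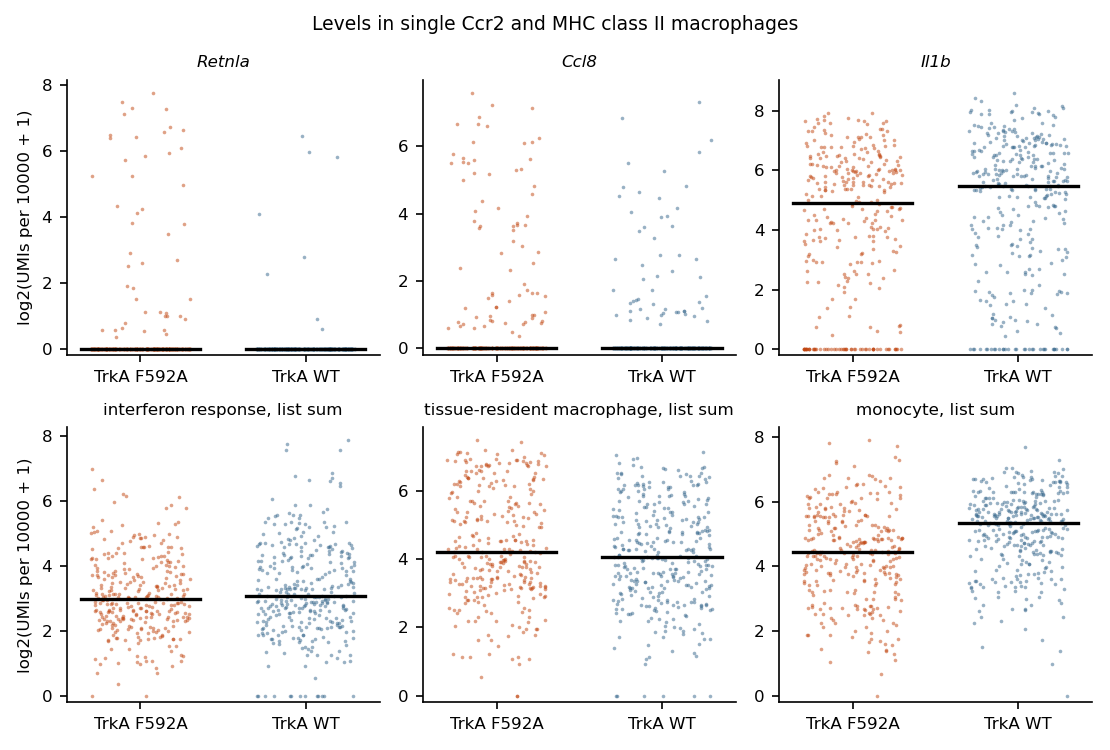
Levels in single macrophages as log2(UMIs per 10000 + 1), 306 TrkA F592A cells to the left and 334 TrkA WT cells to the right in each panel, with the median as a bar. Retnla and Ccl8 are 0 in most cells, and Il1b spans a wide range with a lower median in F592A (29.1 against 44.0 UMIs per 10000 in WT). The monocyte list, a sum that is mostly S100a4, has a lower median in F592A (20.7 against 39.6 in WT).

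Monocyte genes were lower in F592A as a list, mostly by less than 1.5-fold. Of 12 measured, 11 lay below the median of all genes, 1 was lower by 1.5-fold or more, 0 were higher by as much, and the list median was -0.38. Ms4a4c, a membrane protein of classical monocytes, was that gene, at 51.6 CPM in F592A (220 UMIs) and 119.4 CPM in WT (413 UMIs), a log2 ratio of -1.21 (interval -1.45 to -0.97). S100a4 was at 1625 CPM in F592A and 2329 CPM in WT (-0.52), and Ms4a6c at 303.3 CPM in F592A and 437.5 CPM in WT (-0.53). Itga4 was at 67.8 CPM in F592A and 61.6 CPM in WT (0.14), and Plac8 at 95.5 CPM in F592A and 113.1 CPM in WT (-0.24). Per cell the summed list had a median of 20.7 UMIs per 10000 in F592A and 39.6 in WT. This sum was mostly S100a4, which held 1625 of 3038 CPM in F592A and 2329 of 4202 CPM in WT. For 5 of the 12 measured genes, the pooled level here was below 1/4 of that in another cell class.

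Ly6c2, the defining marker of classical monocytes, was rare in these macrophages. After thinning, 12 F592A cells (4.10%) and 23 WT cells (7.54%) held it. Of 11 monocyte genes measured other than Ly6c2, 7 were higher by 1.5-fold or more in those cells in both libraries and 0 were lower by as much, while 4.5% of all 5690 measured genes were that much higher and 7.75% that much lower. Irf7 was at 136.2 CPM in Ly6c2-positive and 13.7 CPM in negative F592A cells, and at 163.6 and 38.8 CPM in WT cells. Ms4a4c was at 480.8 and 36.4 CPM in F592A and at 756.4 and 78.6 CPM in WT. Of 15 interferon-response genes measured, 14 were higher by 1.5-fold or more in Ly6c2-positive cells of both libraries. The other one, Ifit1, was lower by 1.5-fold or more in both, with 2 UMIs in the positive cells of each library. Fcrls, Lyz1, Cd209a and Retnla were lower in them. The part of the different share of Ly6c2-positive cells in the F592A over WT ratios was not tested.

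Il1b, a leading gene of these cells, was at 4838 CPM in F592A and 6356 CPM in WT, a log2 ratio of -0.39. The median cell had 29.1 UMIs per 10000 in F592A and 44.0 in WT, and after thinning 82.3% of F592A cells and 87.2% of WT cells held Il1b, while 2.97% of F592A and 6.67% of WT stromal cells did. Il1b was lower in F592A in each neighbouring set, at -0.18 in low MHC class II macrophages, -0.75 in those without Ccr2 and -0.38 in Flt3 or Ccr7 cells, and at -0.99 in stromal cells. Of 12 measured genes of the IL-1 family and inflammasome, Pycard, the inflammasome adaptor, was at least 1.5-fold lower (-0.61), and the list median was -0.31. Il1a (0.11), the antagonist Il1rn (-0.01) and the sensor Nlrp3 (-0.06) were near level.

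Genes of the NF-kappaB response had a median of -0.03. Tnf was at 509.4 CPM in F592A and 663.6 CPM in WT (-0.38), and Ier3, a stress-response gene, at 1906 CPM in F592A and 3137 CPM in WT (-0.72). Il6 was at 40.6 CPM in F592A and 8.96 CPM in WT (2.18), but its pooled level in these macrophages was below 1/4 of that in the highest cell class. Among chemokine ligands, Ccl4 was at 2658 CPM in F592A and 1887 CPM in WT (0.49), and the neutrophil attractant Cxcl3 at 134.5 CPM in F592A and 256.5 CPM in WT (-0.93). Of 18 chemokine ligands measured, Ccl8 was the 1 higher by 1.5-fold or more, and 4 were lower by as much.

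Macrophages with an Il1b UMI after thinning, 241 in F592A and 266 in WT, were set against those without one, 52 in F592A and 39 in WT. Ccl5, Ptgs2, Areg, Il1a and Thbs1 were higher in them, and genes were named here for standing on the same side in both libraries. Ptgs2, the inducible prostaglandin synthase, was at 774.1 CPM in Il1b-positive and 157.0 CPM in negative F592A cells, and at 763.3 and 67.2 CPM in WT cells. Ccl8, Cd163, Folr2 and Hmox1 were lower in them. Ccl8 was at 308.5 CPM in Il1b-positive and 2176 CPM in negative F592A cells, and at 96.8 and 1108 CPM in WT cells.

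C1qa, a complement gene of mature macrophages, was held by 225 F592A cells (76.8%) and 248 WT cells (81.3%) after thinning. Ccl8, C1qb, C1qc, Gas6, Cbr2, Pf4 and Selenop were higher in C1qa-positive cells of both libraries, and Plac8, Chil3 and Ear2 were lower. Ccl8 was at 824.8 CPM in C1qa-positive and 4.86 CPM in negative F592A cells, and at 277.1 and 7.70 CPM in WT cells. Gpnmb, a marker of lipid-associated macrophages, was in 7.17% of thinned F592A macrophages, below the 15.4% of stromal cells, and in 8.85% of WT macrophages, below the 11.5% of stromal cells. Stromal cells held it more often, so their share cannot gauge free RNA for this gene. A Gpnmb UMI by itself was thus not told apart from free RNA. The cells with one, 21 in F592A and 27 in WT, had more of the lipid-associated list, with a median of 0.94 in F592A and 0.78 in WT over the cells without. Of its 16 measured genes other than Gpnmb, 9 were higher by 1.5-fold or more in both libraries and 0 were lower by as much, while 2.23% of all 5690 measured genes were that much higher and 3.09% that much lower. Fabp5, a fatty acid carrier, was at 918.9 CPM in Gpnmb-positive and 309.3 CPM in negative F592A cells, and at 2595 and 549.8 CPM in WT cells.

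Oxidative phosphorylation genes were slightly higher in F592A, with 30 of 39 above the median of all genes, 4 higher by 1.5-fold or more, 0 lower by as much and a median of 0.25. Ndufa3, a complex I subunit, was at 91.1 CPM in F592A and 50.3 CPM in WT (0.86), and Cox7c, a cytochrome oxidase subunit, at 433.8 CPM in F592A and 265.7 CPM in WT (0.71). The list median was 0.31 in low MHC class II macrophages and 0.31 in Flt3 or Ccr7 cells. Cell cycle genes had a median of -0.82 over 11 measured, 6 of which were lower by 1.5-fold or more. For 6 of the 11, the pooled level here was below 1/4 of that in another cell class. The cell cycle median was -0.01 in low MHC class II macrophages and -0.28 in Flt3 or Ccr7 cells. Mki67 was at 40.4 CPM in F592A and 81.2 CPM in WT (-1.01). The share of cells with at least 2 UMIs of 6 mitotic genes was 16.3% in F592A and 19.2% in WT, and without those cells the list median was 0.02. The 6 genes are on the list, so leaving out cells by them acts on the list itself. That value cannot show how much of the difference those cells held. The list median was -0.05 with the class II limit at 200.

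Lysosome (0.01), immediate early (-0.06), heat shock (-0.07), lineage regulator (-0.07), lipid-associated macrophage (-0.10), repair (-0.16), complement (-0.19) and glycolysis genes (-0.25) lay near the median of all genes. Chemokine and lipid mediator receptors (0.05), iron handling (0.03) and cholesterol genes (0.07) did too. Single genes stood out. Fabp5, a fatty acid carrier, was at 357.5 CPM in F592A and 728.9 CPM in WT (-1.03). Hbegf, an EGF receptor ligand, was at 112.7 CPM in F592A and 58.1 CPM in WT (0.96), and the metallothionein Mt1 at 687.0 CPM in F592A and 371.6 CPM in WT (0.89). Tgfbi was at 502.6 CPM in F592A and 747.2 CPM in WT (-0.57).

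**Figure D5:**
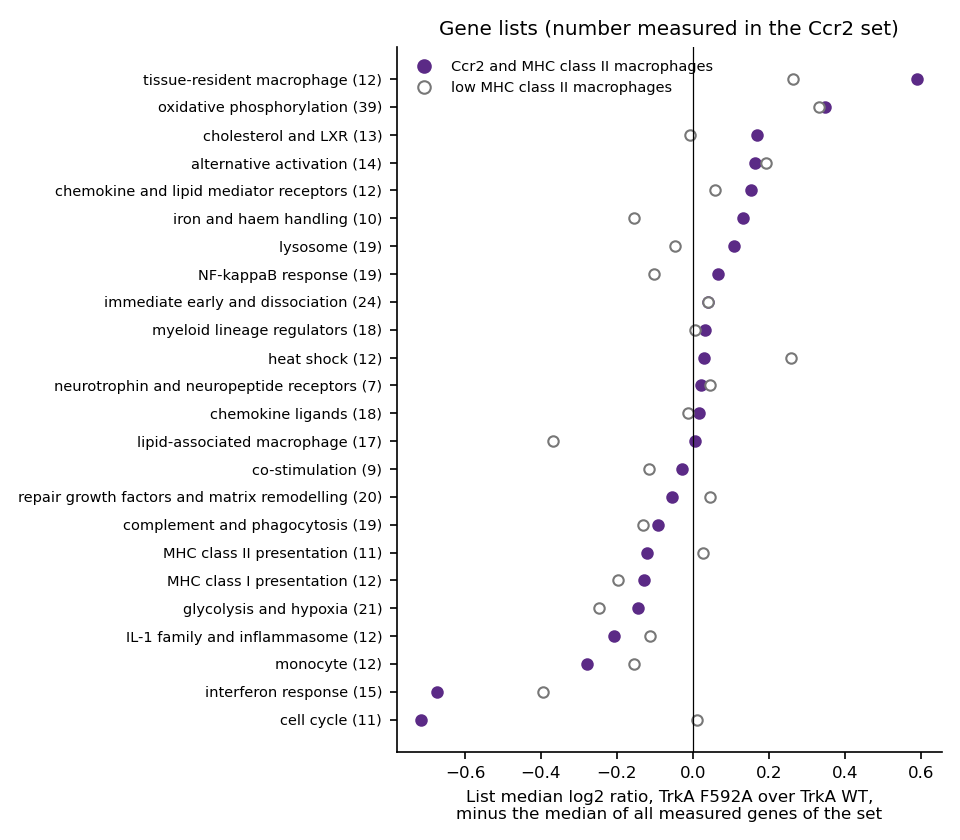
Median log2 ratio of each gene list, TrkA F592A over TrkA WT, less that set's all-gene median, for lists with 4 or more measured genes, whose number stands in brackets. Filled circles are Ccr2 and MHC class II macrophages and open circles low MHC class II macrophages. Among these lists the tissue-resident one is the highest and the cell cycle and interferon ones are the lowest in the Ccr2 and MHC class II macrophages.

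The last genes of the 10 lowest were shared with other cells or low. Tppp3, a tubulin-binding gene of the tendon sheath, was at 136.1 CPM in F592A and 316.9 CPM in WT (-1.22), with -1.20 in low MHC class II macrophages and -1.03 in stromal cells. Stxbp6 was at 17.6 CPM in F592A and 42.5 CPM in WT (-1.27), with -1.10 in stromal cells. Eva1b was at 49.1 CPM in F592A and 126.1 CPM in WT (-1.36), with -0.30 in stromal cells. Scimp, an adaptor of MHC class II and Toll-like receptor signalling, was at 9.62 CPM in F592A (41 UMIs) and 25.4 CPM in WT (88 UMIs), a log2 ratio of -1.40, with -0.36 in low MHC class II macrophages. Markers of other cells differed as well. Stromal markers summed to 497.9 CPM in F592A and 650.3 CPM in WT, mural markers to 180.5 CPM in F592A and 70.8 CPM in WT, and red cell genes to 15.3 CPM in F592A and 236.5 CPM in WT. Their part in these values was not tested.

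Of 7 measured neurotrophin and neuropeptide receptor genes, 0 passed 1.5-fold in either direction, and the list median was -0.08. Of all measured genes, 2.68% were that much higher and 5.41% that much lower, so 0 of 7 is no result about these genes. The genotype labels were not checked here. A single changed codon can leave transcript levels as they are. Ngfr, a neurotrophin receptor, had 0 UMIs in F592A and 2.89 CPM in WT. Ramp1, a part of the receptor for the nerve peptide CGRP, was at 80.3 CPM in F592A (342 UMIs) and 96.0 CPM in WT (332 UMIs), a log2 ratio of -0.26 (interval -0.48 to -0.04). Ramp3, a part of the adrenomedullin receptor, was at 52.8 CPM in F592A and 55.8 CPM in WT (-0.08). Calcrl, the receptor that both partner, was at 8.92 CPM in F592A and 6.94 CPM in WT. The semaphorin receptors Nrp1 (62.4 CPM in F592A and 46.6 CPM in WT, 0.42) and Plxnd1 (91.1 CPM in F592A and 63.3 CPM in WT, 0.52) were higher in F592A, and Nrp2 was at 122.1 CPM in F592A and 132.4 CPM in WT (-0.12).

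Against low MHC class II macrophages the cells stood apart in the same genes in both libraries, given as a description since the choice used these cells. Klrb1b, a lectin-like receptor, was at 51.4 CPM against 0.261 CPM in F592A and at 57.0 against 0.464 CPM in WT. Ramp3 was at 52.8 against 2.66 CPM in F592A and at 55.8 against 3.67 CPM in WT. The C-type lectins Cd209a, Clec4b1 and Mgl2 were also higher in the MHC class II cells. Spp1, which encodes osteopontin, was lower, at 175.6 against 1611 CPM in F592A and at 232.8 against 3092 CPM in WT, as were Gpnmb, Atp6v0d2, Pdpn and Ctsk. The alternative activation list had a median of 1.06 in F592A and 1.88 in WT, the resident list -1.21 in F592A and -1.71 in WT, and the lipid-associated list -1.19 in F592A and -1.35 in WT, as log2 ratios of these cells over low MHC class II macrophages.

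Against Flt3 or Ccr7 cells, the macrophages had more Lyz1, Il10, Ccl3, Ccl4, Ccl8, Fcrls and Hmox1 and less of the dendritic genes Il4i1, Tbc1d4 and H2-Oa in both libraries. Il10, which dampens inflammation, was at 489.4 against 50.4 CPM in F592A and at 571.1 against 59.8 CPM in WT. Il4i1 was at 3.05 against 141.1 CPM in F592A and at 2.02 against 153.8 CPM in WT. Against MHC class II macrophages without Ccr2 they had more Retnla, Cd209a, Plac8 and Cxcl10 and less Ccl8, Gdf15 and Vcam1. Ccl8 was at 622.5 against 1872 CPM in F592A and at 229.9 against 632.4 CPM in WT.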

How the data were processed

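Single-cell counts of 1 TrkA F592A and 1 TrkA WT library were used as deposited, as whole-number UMI counts per gene and barcode. The authors made these counts with Cell Ranger 6.0.1 per the file headers. Version 2.1.1 of Cell Ranger, with Seurat and the mm10 build, stands in the submitters' processing notes. Gene names are those of the deposited counts, and gene coordinates printed follow GENCODE M21 on GRCm38.

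From these counts, barcodes were filtered and the macrophages chosen as described above, with Python 3.11.15, numpy 2.4.6, scipy 1.17.1, pandas 2.3.3, scanpy 1.11.5 and matplotlib 3.10.9. Barcodes held by both libraries were left out. Doublets called by Scrublet in scanpy, 217 in F592A and 339 in WT, were kept, and left out as an alternative. UMIs were summed over the cells of each library and divided by the sum over all genes, with no further scaling. TMM factors came from edgeR 4.0.16 in R 4.3.3 as an alternative. Intervals are exact Poisson for CPM, exact conditional binomial for log2 ratios, exact binomial (Clopper-Pearson) for shares and Katz log intervals for ratios of shares. They cover counting error only. With 1 library per genotype no test between genotypes was made. Detection was read after thinning each cell to 5000 UMIs, which left out 13 F592A and 29 WT macrophages. The scripts were tested on simulated data.

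Named genes were the 10 highest and 10 lowest log2 ratios among genes that reached 20 CPM in either library and 100 UMIs in all, without mitochondrial, ribosomal, haemoglobin, sex-linked and unnamed genes and without genes at less than 1/4 of their level in another cell class. For each list the 2 highest and 2 lowest genes, and for each comparison of cell sets the genes furthest to the same side in both libraries, were also named. Other genes named from the lists were chosen after their values were seen. The cells and the gene lists were chosen with earlier results of these data known. Some genes are not reported here.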

Additional observations from a re-analysis of the deposited data

Results flagged for a closer look

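The log2 ratio of F592A over WT had the opposite sign in the Ccr2 and MHC class II macrophages and in the Flt3 or Ccr7 cells for 2 of the named genes. For Lpl it was 1.16 in the macrophages and -1.41 in the Flt3 or Ccr7 cells (14.0 CPM in F592A and 37.4 CPM in WT). For Atr it was 1.19 in the macrophages and -1.09 in the Flt3 or Ccr7 cells (10.2 CPM in F592A and 21.8 CPM in WT). With 1 library per genotype, neither difference between the cell sets was tested.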

How the results depend on the processing

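The share ratio of the macrophages, F592A over WT, lay between 1.11 and 1.34 under every limit tried, and its interval included 1 only with the limit of 200 MHC class II UMIs per 10000. The counts of genes apart by 2-fold lay between 20 and 34 higher and between 31 and 46 lower in F592A, except with UMIs thinned to 5000 per cell, which gave 13 higher and 22 lower over fewer genes tested, and with a minimum of 50 CPM, which gave 18 higher and 14 lower, also over fewer genes. TMM gave 34 higher and 31 lower and median-of-ratios factors 33 and 31, because both move the median of all genes from -0.10 to 0. Of the 20 named genes, 19 kept their sign under all 15 settings and 13 stayed past 2-fold. Atr was at -0.39 after thinning; the cause was not tested. Of 720 values of genes and lists under these settings, 72 moved beyond their spread, 1 counted as reversed and 647 did neither. Only genes with a main log2 ratio of at least 1 in size could count as reversed, and lists could not. Values near 0 changed sign more often. The chemokine ligand list median kept its sign in 10 of 15 settings and Cd74 in 12. The tissue-resident and interferon-response list medians kept theirs in all 15. Leaving out mitotic or Retnla-positive cells was chosen after seeing the data. A planned setting without cycling cells was not run, because its definition left 10 F592A and 9 WT cells of those with at least 5000 UMIs, and 23 and 38 with the shallower cells included. No paired analysis was possible because there was 1 library per genotype. Genes under 100 UMIs in all were not compared at this depth.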

Other observations

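Cxcl13, which attracts B cells, had 96 UMIs in the F592A macrophages, all in 1 cell, and 0 UMIs in the WT macrophages, so its summed level of 22.5 CPM in F592A describes that cell. The low MHC class II macrophages had 0 Cxcl13 UMIs in both libraries. Ramp3 was higher in Flt3 or Ccr7 cells than in the Ccr2 and MHC class II macrophages of both libraries, at 220.2 CPM in F592A and 376.2 CPM in WT in those cells.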
